A study of Caenorhabditis elegans with 2 samples.

Results

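Homeobox genes encode transcription factors with a homeodomain, and 84 of the 19973 protein-coding genes on the nuclear chromosomes of Caenorhabditis elegans are described here by the regions that UNC-30 chromatin immunoprecipitation sequencing (ChIP-seq) gave in and near them. They are the 63 genes of the annotation whose symbol begins with ceh- and 21 listed genes (dve-1, lin-39, mab-5, egl-5, lin-11, mec-3, ttx-3, lim-4, lim-6, lim-7, unc-42, unc-86, unc-62, vab-3, pal-1, nob-1, php-3, zag-1, cog-1, ttx-1 and unc-37). One listed gene, unc-37, encodes the Groucho corepressor, which has no homeodomain. It is counted among the 84 because it is listed, and is given apart by class. The libraries came from whole L1 larvae of mixed sex of strain OP395 (unc-119(tm4063) III; wgIs395), which carries a transgene for UNC-30 fused at its C-terminal end to GFP-FLAG. There are 2 biological replicates in 1 group, and no other strain, stage or treatment was analysed here. The measurement is of the tagged transgene product in 1 transgenic line, in chromatin of all tissues together, and the UNC-30-expressing neurons are a small part of a larva.

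The homeodomain is a DNA-binding fold of helices, and most homeodomains contact a core with the letters TAAT. Homeodomain factors set the body axis, as the Hox genes do, and fix the identity of single neuron classes in C. elegans, where neuron types are marked by their combinations of homeobox genes. UNC-30 is itself a homeodomain protein of the Pitx family, whose bicoid type of homeodomain prefers TAATCC, and it specifies the GABAergic D-type motor neurons.

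A region was counted for a gene when its summit lay from 5000 bp upstream of the gene's 5′ end to its 3′ end. Locations of summits refer to protein-coding genes only, so a region called between genes can lie in a gene of another type. Regions came from the authors' lists for the ce11 (WBcel235) genome build, which are a thresholded list of 125 peaks, a pooled list of 30000 candidates from both replicates and a list of 30000 candidates from each replicate. The candidate lists hold background as well as peaks, so presence in one is weak evidence of binding, and rank by the authors' signal value is given beside it. The lowest signal value was 39.2 in the thresholded list, 25.3 at rank 1000 of the pooled list and 10.7 at the end of the pooled list. The depth of the libraries is unknown, since no list gives reads. No test was run on the homeobox genes. Counts are given with 95% Wilson intervals, which cover counting error only, beside the same count over all 19973 protein-coding genes.

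The sequences around the summits that carry the highest values come first. They are the highest pooled regions of the 4 homeobox genes within the 1000 highest pooled regions (ceh-38, dve-1, lim-6 and ceh-24), of the highest Hox gene (nob-1), and of the only Hox gene whose highest region holds TAATCC (mab-5). Each is the 201 bp centred on the summit, in ce11, plus strand, 5′ to 3′, read from the RefSeq copy of the WBcel235 sequence. Capitals mark TAAT on either strand (ATTA on the strand shown), with 6 capitals where the core is TAATCC.
ceh-38 chrII:6951477-6951677: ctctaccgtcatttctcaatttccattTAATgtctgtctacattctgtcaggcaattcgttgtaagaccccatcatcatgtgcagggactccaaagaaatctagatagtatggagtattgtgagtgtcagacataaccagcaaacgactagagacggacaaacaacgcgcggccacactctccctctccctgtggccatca
dve-1 chrX:435219-435419: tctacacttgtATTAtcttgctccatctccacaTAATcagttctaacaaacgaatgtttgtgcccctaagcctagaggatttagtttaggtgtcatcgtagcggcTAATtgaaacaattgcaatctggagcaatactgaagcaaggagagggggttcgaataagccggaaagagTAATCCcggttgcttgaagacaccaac
lim-6 chrX:1075878-1076078: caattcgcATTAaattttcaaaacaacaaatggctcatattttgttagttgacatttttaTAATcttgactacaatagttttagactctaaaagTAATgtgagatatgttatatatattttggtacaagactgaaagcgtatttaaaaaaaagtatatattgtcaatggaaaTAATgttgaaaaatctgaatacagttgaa
ceh-24 chrV:13809210-13809410: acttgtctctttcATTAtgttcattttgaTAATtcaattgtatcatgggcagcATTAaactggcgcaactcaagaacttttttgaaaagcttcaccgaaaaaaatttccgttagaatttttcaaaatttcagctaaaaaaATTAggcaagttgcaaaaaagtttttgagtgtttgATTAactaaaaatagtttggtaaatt
nob-1 chrIII:12088637-12088837: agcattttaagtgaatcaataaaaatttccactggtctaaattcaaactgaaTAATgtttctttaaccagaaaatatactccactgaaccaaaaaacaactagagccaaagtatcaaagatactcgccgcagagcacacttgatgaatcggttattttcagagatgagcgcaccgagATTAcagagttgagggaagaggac
mab-5 chrIII:7780357-7780557: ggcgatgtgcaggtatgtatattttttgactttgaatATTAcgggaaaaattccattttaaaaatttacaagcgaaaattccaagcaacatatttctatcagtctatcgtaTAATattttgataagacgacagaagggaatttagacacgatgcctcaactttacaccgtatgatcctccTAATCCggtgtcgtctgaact

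The region of ceh-38, the highest of all homeobox genes, has a single TAAT and neither TAATCC nor TAATTA. That of dve-1 has 4 TAAT cores, of which 1 is TAATCC, 74 bp from the summit. The lim-6 region has 4 TAAT cores, the ceh-24 region 5 and the nob-1 region 2, none of them a TAATCC. The mab-5 region has 3, of which 1 is TAATCC, 80 bp from the summit. A match of letters is a description and not a binding site.

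ceh-38 was the only homeobox gene with a thresholded peak in its window. It encodes a homeodomain protein of the CUT class, whose members in C. elegans act together in pan-neuronal gene expression. The gene lies at chrII:6951526-6955409 on the plus strand, and the peak, chrII:6951399-6951754, has its summit in the 5′ UTR, 51 bp into the gene. The signal value was 50.4 in the pooled list (rank 58), 36.6 in replicate 1 (rank 47) and 13.3 in replicate 2 (rank 2883). The peak was thus near the top in replicate 1 and far lower in replicate 2. The −log10 q-value of the peak was 1.58 in the authors' pooled list. No other homeobox gene had its highest region below a q-value of 0.05. In the pooled list 64 of the 30000 regions reached it, which is a count of regions and not of genes. The same count over all protein-coding genes was not made. The window of ceh-38 held 7 pooled regions, of which 2 were matched in both replicates, meaning that each replicate had a summit within 100 bp. All its regions upstream of the gene, 1026 to 4153 bp from the 5′ end, were nearer to the 5′ end of malt-1. The one 4153 bp upstream, in a 3′ UTR, was matched in both replicates, as was the peak. One gene of 84 is 1.19% (interval 0.21 to 6.44%), beside 1.18% of all protein-coding genes with a thresholded peak in the window, so the count is near that of genes in general.

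3 further homeobox genes had one of the 1000 highest pooled regions. dve-1 encodes a SATB-like homeodomain protein known for its part in the mitochondrial unfolded protein response. Its highest region, chrX:435141-435496, lies between genes, 1507 bp upstream of the 5′ end, and had a signal value of 33.1 in the pooled list (rank 242) and 26.1 in replicate 1 (rank 131). Replicate 2 had no summit within 100 bp of it. A second dve-1 region, in an intron 2197 bp downstream of the 5′ end, had a signal of 25.3 (rank 1009), just outside the 1000 highest, and was matched in replicate 1 (rank 2885) and in replicate 2 (rank 5791).

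lim-6 encodes an LMX-type LIM homeodomain protein that acts in the differentiation of GABAergic neurons other than the D type. Its highest region, chrX:1075800-1076155, lies in an intron 3526 bp downstream of the 5′ end. The signal value was 26.9 in the pooled list (rank 699), 13.05 in replicate 1 (rank 3180) and 18.2 in replicate 2 (rank 442). ceh-24, an NK-2 type gene that acts in head motor neurons and sex muscles, had its highest region at chrV:13809132-13809487, 3921 bp upstream. The signal there was 25.5 in the pooled list (rank 957), 7.09 in replicate 1 (rank 23627) and 14.4 in replicate 2 (rank 1853). This region is nearer to the 5′ end of swan-1, at 2073 bp, than to that of ceh-24. The replicates thus ranked the regions of ceh-38, lim-6 and ceh-24 apart, with replicate 1 higher for ceh-38 and replicate 2 higher for lim-6 and ceh-24. The dve-1 region had a rank in replicate 1 only.

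The count of 4 genes is 4.76% of the homeobox genes (interval 1.87 to 11.61%), beside 7.98% of all protein-coding genes. In the replicates' own lists, 5 homeobox genes had one of the 1000 highest nuclear regions of replicate 1, or 5.95% (2.57 to 13.19%), beside 7.95% of all genes. For replicate 2 it was 2 homeobox genes, or 2.38% (0.66 to 8.27%), beside 7.94%. The 5 in replicate 1 were ceh-38, ceh-5, dve-1, ceh-88 and vab-3, and the 2 in replicate 2 were ceh-62 and lim-6. Of these, ceh-5 and ceh-62 are named after their values were seen. The replicate 1 region of ceh-5 had a signal of 29.0 (rank 89) and matched a pooled region of rank 21492, with no match in replicate 2, and it lies 478 bp from the 5′ end of eat-16. The replicate 2 region of ceh-62 had a signal of 19.97 (rank 245) in an intron, and the nearest pooled summit was 110 bp away. No homeobox gene stood among the 1000 highest in both replicates.

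**Figure D1:**
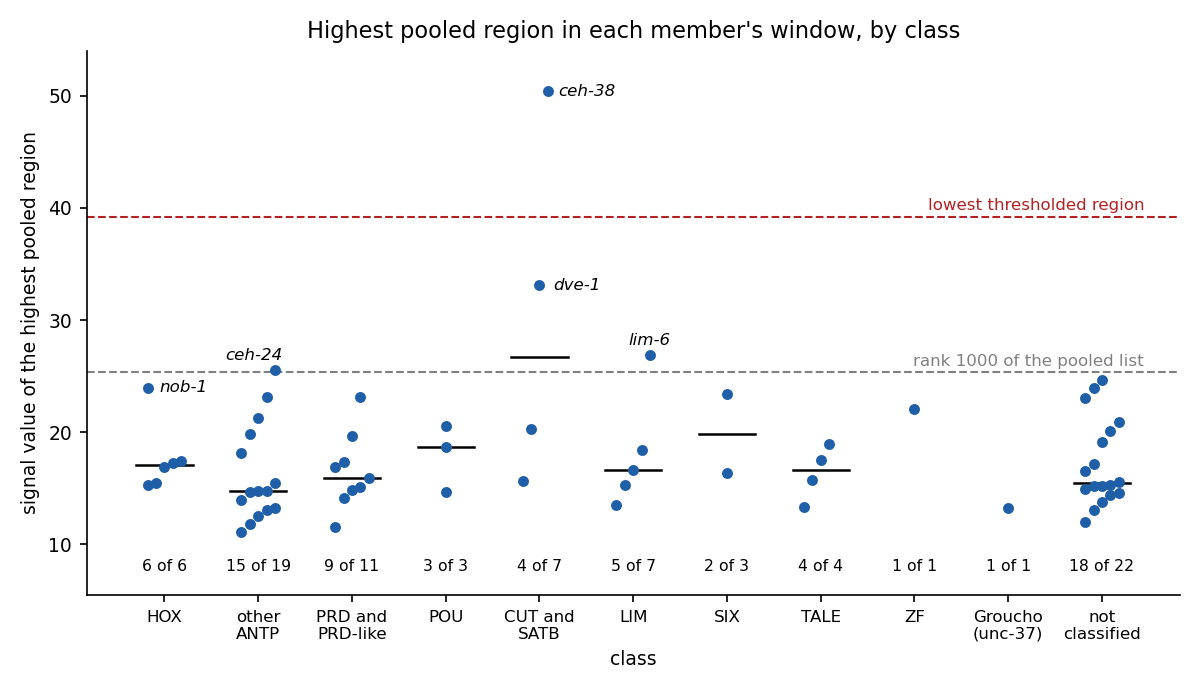
Signal value of the highest pooled region in each homeobox gene's window (1 point per gene, vertical axis), by homeobox class (horizontal axis), with a bar at the class median and, below, how many genes of the class had a region. ceh-38 alone lies above the lowest thresholded signal of 39.2, and 3 more genes lie above the rank-1000 signal of 25.3.

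Taking the pooled list whole, 68 of 84 homeobox genes had at least 1 region in the window, or 81.0% (71.28 to 87.92%), beside 83.1% of all protein-coding genes. The list of replicate 1 gave 77 homeobox genes, or 91.7% (83.78 to 95.9%), beside 84.5% of all genes, and that of replicate 2 gave 73, or 86.9% (78.05 to 92.53%), beside 85.1%. These shares are near or a little above those of genes in general, as are the 2.44 pooled regions per homeobox gene beside 2.40 per gene. Homeobox genes are longer, with a median window of 8342.5 bp against 7027 bp for all genes, and longer windows hold more regions (Spearman's rho 0.45 across the 84 homeobox genes and 0.40 across all 19973 genes, both as descriptions across genes). Per length of window, the homeobox genes held 2.63 regions per 10 kb and all genes 2.91.

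The highest pooled region of a homeobox gene had a median rank of 9786 (95% order-statistic interval 7193 to 11857) and a median signal of 16.1. Over all genes with a region, the medians were rank 7609 and signal 17.2, within that interval of rank. Without unc-37, 67 of 83 homeobox genes had a region, with a median rank of 9260. The highest region lay beyond rank 10000 for 34 of the 68 genes (interval 38.44 to 61.56%), beside 40.6% of all genes with a region. A match in both replicates was found for the highest region of 16 of 68 homeobox genes, or 23.5% (15.03 to 34.86%), beside 25.0% of all genes with a region. Since ceh-57 and ceh-58 share one, there are 67 distinct highest regions, of which 25 were matched in replicate 1 alone, 16 in replicate 2 alone and 10 in neither. Over all pooled regions, of any rank, 47.0% were matched in replicate 1 and 46.1% in replicate 2. Each of these shares includes the 14.4% matched in both. The difference between the replicates was not tested.

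**Figure D2:**
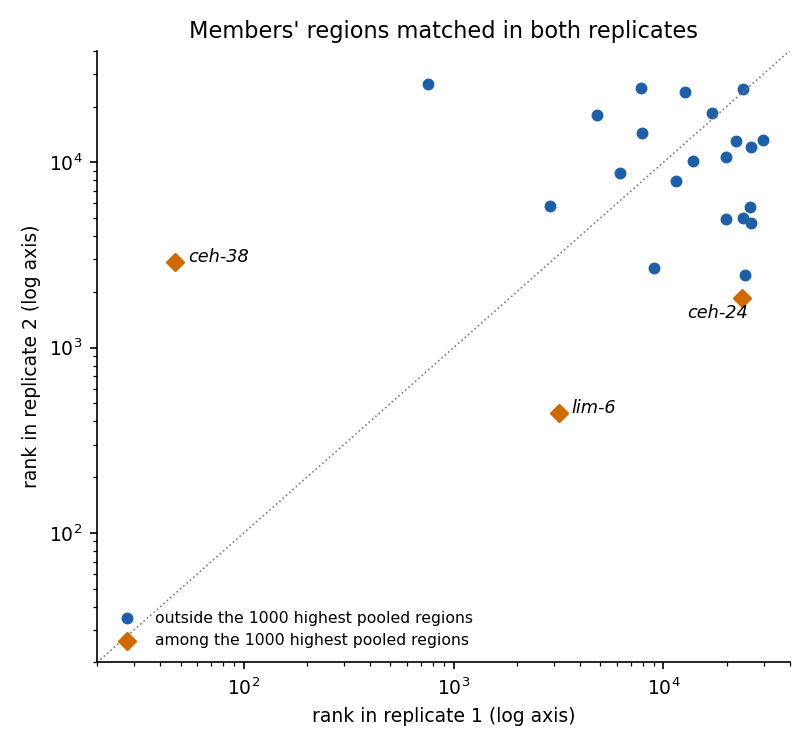
Rank in replicate 1 (horizontal, log axis) against rank in replicate 2 (vertical, log axis) for the 24 pooled regions in homeobox windows that were matched in both replicates, with diamonds for those within the 1000 highest pooled regions and a dotted line of equal rank. The regions of ceh-38, lim-6 and ceh-24 lie off the line, and no region ranks within 1000 in both replicates.

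The Hox genes pattern the worm from head to tail: ceh-13 is the labial-type gene, lin-39 acts in the midbody, mab-5 in the posterior body, and egl-5, php-3 and nob-1 are posterior genes related to Abdominal-B. All 6 lie on chromosome III in separate groups. Each had at least 1 pooled region, 20 in all, beside 83.1% of all protein-coding genes with one. None had a thresholded peak or one of the 1000 highest regions, beside 1.18% and 7.98% of all genes. Hox windows held 3.35 regions per 10 kb, against 2.63 for all homeobox genes and 2.91 for all protein-coding genes. The 6 highest regions had a median rank of 7766, close to that of genes in general. Of the 20 regions, 1 was matched in both replicates, 9 in replicate 1 alone, 6 in replicate 2 alone and 4 in neither. Of all pooled regions, 14.4% were matched in both. With those included, 47.0% of all pooled regions were matched in replicate 1 and 46.1% in replicate 2.

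nob-1 (chrIII:12077793-12084316) stood above the other Hox genes. Its highest region, chrIII:12088559-12088914, lies 4421 bp upstream, between genes, with a signal value of 23.96 in the pooled list (rank 1376), 13.4 in replicate 1 (rank 2835) and no match in replicate 2. All 3 of its upstream regions were matched in replicate 1 and not in replicate 2. php-3 (chrIII:12074218-12077556), its neighbour, had a signal of 17.4 (rank 7193) in an intron 2619 bp downstream of the 5′ end, matched in replicate 1 alone (rank 17991).

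egl-5 (chrIII:7814374-7817141) held the one Hox region matched in both replicates. It lies 3324 bp upstream, with a signal of 17.3 in the pooled list (rank 7420), rank 11478 in replicate 1 and rank 7939 in replicate 2. mab-5 (chrIII:7776835-7783454) had its highest signal, 16.9 (rank 8112), in an intron 2997 bp downstream, matched in replicate 1 (rank 16708) alone; its sequence is shown above. For lin-39 (chrIII:7528641-7536632) the highest value was 15.5 (rank 11409), in an intron 3380 bp downstream, with a match in neither replicate. A lower lin-39 region of signal 11.7, in the 5′ UTR 18 bp from the 5′ end, holds TAATCC. ceh-13 (chrIII:7555660-7558041) had its highest signal, 15.3 (rank 11857), 878 bp upstream, matched in replicate 1 (rank 5619), and a second region of 11.4, 2815 bp upstream, that holds TAATCC. The Hox windows hold 28 TAATCC sites, or 4.70 per 10 kb, beside 3.63 for all protein-coding genes. Of these, 3 lie within 100 bp of a pooled summit, or 10.7%, beside 6.25% for all genes. None lies near the 1000 highest summits, beside 0.362%.

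**Figure D3:**
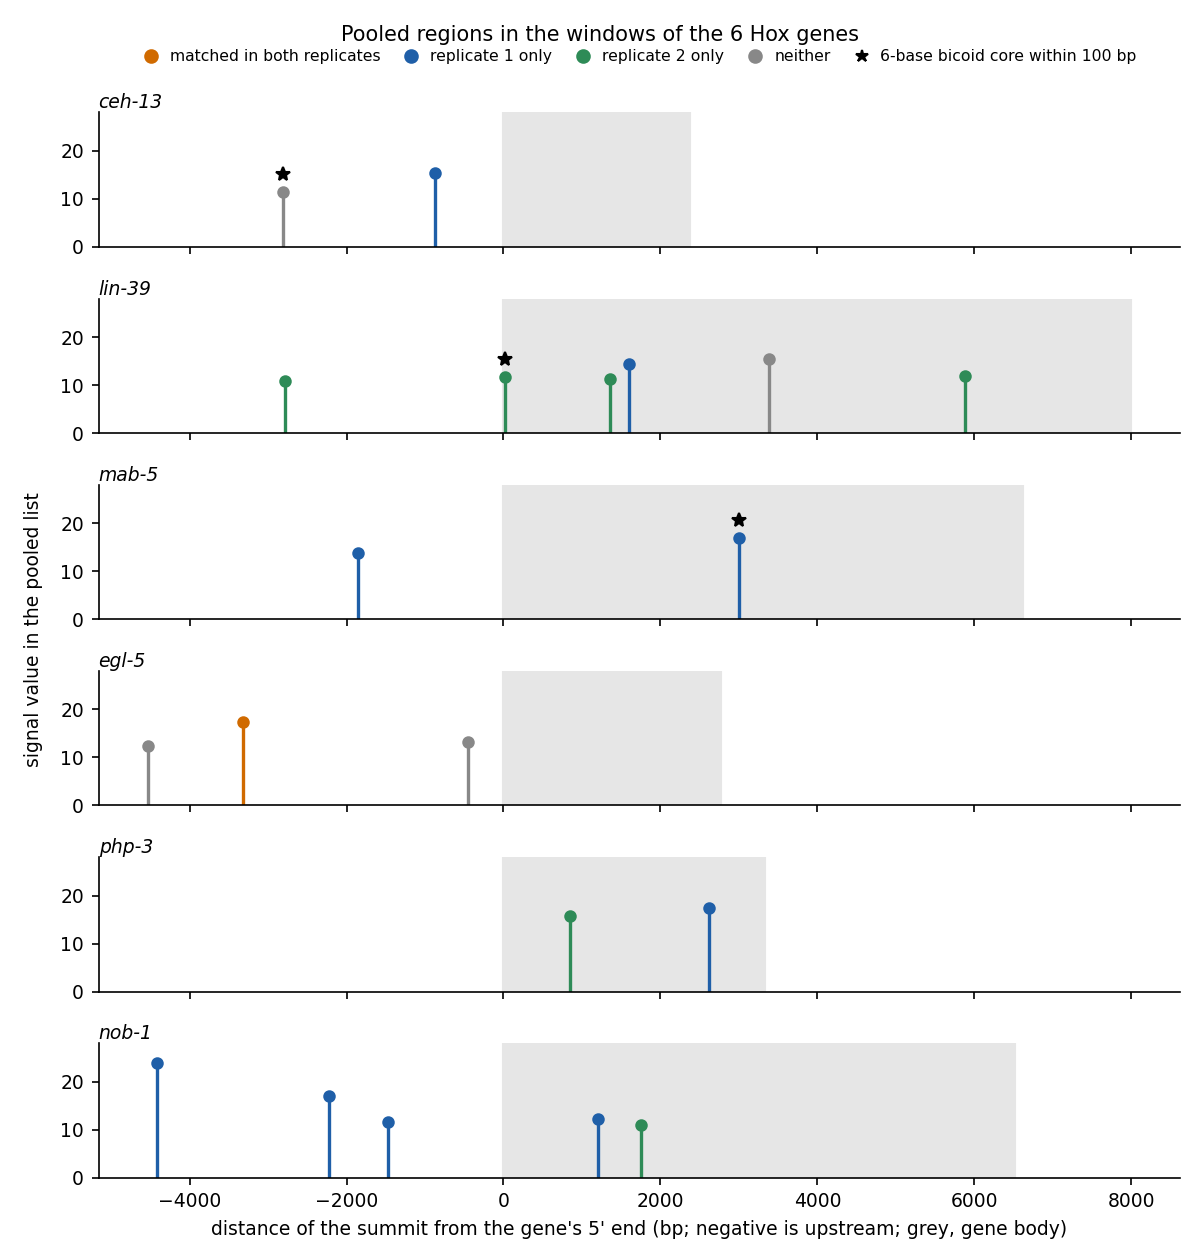
Pooled regions in the windows of the 6 Hox genes, by distance of the summit from the gene's 5′ end (horizontal, bp, upstream negative) and signal value (vertical), with the gene body in grey. Colours give the match in the replicates and stars mark regions with TAATCC within 100 bp of the summit; the nob-1 region 4421 bp upstream is the highest, at 23.96, and the egl-5 region 3324 bp upstream is the one matched in both replicates.

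Among the other classes, the CUT and SATB genes had the highest values and also the largest share without a region. Of 7 genes, 4 had a pooled region, with a median highest signal of 26.7 and a median rank of 1844.5, and 2 of these (ceh-38 and dve-1) stood within the 1000 highest. ceh-48, a CUT gene of the ONECUT type, followed with 20.3 (rank 3447) in an intron, matched at rank 9031 in replicate 1 and 2676 in replicate 2. The other 3 (ceh-21, ceh-41 and ceh-49) had none in the pooled list. ceh-21 and ceh-41 are neighbours on chromosome X, and their windows overlap. ceh-21 had a region in the list of replicate 1, and ceh-41 in that of replicate 2. With 7 genes, the class was not compared with the others beyond these values. For this and each class below, the count with a pooled region stands beside 83.1% of all protein-coding genes. The count within the 1000 highest stands beside 7.98%.

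The other ANTP genes, the class of NK-type and related homeodomains, numbered 19, of which 15 had a pooled region, with a median highest signal of 14.8. Besides ceh-24, the highest were ceh-1 at 23.1 (rank 1687), in a coding exon 1615 bp from the 5′ end of the nearer gene nhr-45, and cog-1, the Nkx6-type gene of left-right taste neuron asymmetry, at 21.2 (rank 2750), in an intron 3691 bp from the 5′ end of the nearer R03C1.1. ceh-9 followed with 19.9 (rank 3872), in a coding exon 333 bp downstream of its 5′ end, and its region holds TAATCC. Of 11 PRD and PRD-like genes, the class that includes Pax6 and relatives of UNC-30, 9 had a region, with a median signal of 15.9. The Pax6 gene vab-3 had 8 regions in its window, the highest at 23.1 (rank 1684). That region lies 3814 bp upstream of the annotated 5′ end, in an intron of another gene. No replicate summit lay within 100 bp of it. Replicate 1 had a region of rank 755 close by, with its summit 3706 bp upstream, which matched a lower pooled region of rank 26730. The Rax-type gene ceh-8 had 19.7 (rank 4082), matched in both replicates and nearer to the 5′ end of col-63, at 2286 bp, than to its own.

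Of 7 LIM genes, 5 had a region, with a median signal of 16.6, and lim-6 was the one within the 1000 highest regions. mec-3, the LIM gene of touch receptor neurons, and ceh-14 had none in the pooled list. All 3 POU genes had a region, beside 83.1% of all protein-coding genes. The highest was that of ceh-18, which acts in the gonad sheath, at 20.6 (rank 3227). It lies in an intron 1599 bp downstream, with TAATCC and a match in replicate 2 alone (rank 1594). Of 3 genes of the sine oculis class, 2 had a region, the higher being ceh-33 at 23.4 (rank 1562), matched at rank 1173 in replicate 1 and not in replicate 2. All 4 TALE genes, which include the Hox cofactors ceh-20 and unc-62, had a region, with highest signals between 13.4 and 18.98. zag-1, the ZEB-type zinc finger homeodomain gene of neuron differentiation, had 22.1 (rank 2232), 4816 bp downstream and nearer to the 5′ end of aat-8, at 4385 bp, matched in replicate 1 at rank 2707.

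The 22 ceh- genes that were placed in no class had a pooled region in 18 cases, with a median highest signal of 15.4. The highest were ceh-79 at 24.6 (rank 1192), ceh-99 at 23.9 (rank 1394) and ceh-88 at 23.1 (rank 1716), followed by ceh-92 at 20.96 (rank 2963), ceh-91 at 20.1 (rank 3675) and ceh-100 at 19.1 (rank 4768). The region of ceh-99 was matched in both replicates (ranks 6227 and 8806), while ceh-79 and ceh-88 were matched in replicate 1 alone. The ceh-99 region lies in a 5′ UTR, 332 bp from the 5′ end of srh-70 and 1454 bp upstream of ceh-99. The ceh-88 region, which holds TAATCC, lies in a 3′ UTR, 150 bp from the 5′ end of C49C3.7. The highest region of ceh-100 lies in an intron 2636 bp from the 5′ end of clec-4. ceh-100 had 9 pooled regions, the most of any homeobox gene. Its window was also the longest of them, at 26503 bp against a median of 8342.5 bp. The Groucho gene unc-37 had a signal of 13.2 (rank 18493), in an intron 2390 bp downstream of its 5′ end, matched in neither replicate.

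16 homeobox genes had no pooled region in the window. They were ceh-14, ceh-17, ceh-21, ceh-22, ceh-23, ceh-27, ceh-30, ceh-32, ceh-36, ceh-41, ceh-49, ceh-74, ceh-81, ceh-82, ceh-84 and mec-3. Of these, 10 had a region in the list of replicate 1 and 7 in that of replicate 2. ceh-49, ceh-81, ceh-82 and ceh-84 had none in any list, 4 of 84 genes, beside 1046 of all 19973 protein-coding genes. The windows of ceh-81 and ceh-82 overlap. On the X chromosome lie 23 of the 84 homeobox genes, or 27.4%, beside 13.7% of all protein-coding genes. 18 of those 23 had a pooled region (78.3%), beside 86.1% of all genes on X.

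The highest region lay upstream of the 5′ end for 38 of the 68 homeobox genes with a region, or 55.9% (44.08 to 67.05%), beside 72.3% of all genes with a region, and inside the gene for the other 30. The median homeobox gene was 3342.5 bp long, against 2027 bp for all genes, so a larger part of each window was gene body; the part of length in the difference was not tested. Within 1000 bp of the 5′ end lay 14, or 20.6% (12.68 to 31.64%), beside 29.4%. For 26 of the 68, or 38.2% (27.61 to 50.12%), the 5′ end of another protein-coding gene was nearer, beside 52.0% of all genes with a region. Across all 202 distinct regions in homeobox windows, 44.6% were in introns and 36.1% between genes, beside 38.2% and 43.1% of the other pooled regions. Homeobox windows held 2.74 regions per 10 kb in the first 1000 bp upstream, against 3.62 for all genes. In the next 1000 bp upstream they held 3.69 against 2.98, from 31 regions. The peak of density just upstream of the 5′ end that all genes show was thus not seen in the homeobox genes, whose counts per step are 18 to 32 regions; the difference was not tested.

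**Figure D4:**
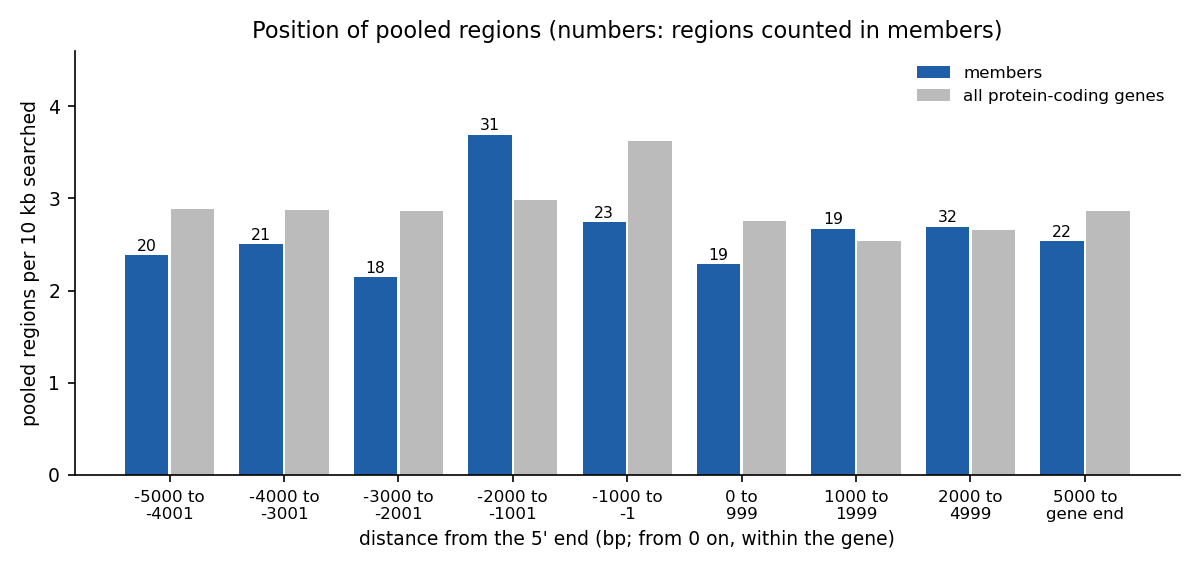
Pooled regions per 10 kb searched (vertical axis) by distance from the gene's 5′ end (horizontal axis, bp), for homeobox genes on the left of each pair and all protein-coding genes on the right, with the number of regions over the homeobox bars. Homeobox genes are highest from 1000 to 2000 bp upstream, at 3.69 per 10 kb, and all genes in the first 1000 bp upstream, at 3.62.

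Homeodomain cores were counted in the 201 bp around the summits, on both strands. Every TAATCC and every TAATTA contains a TAAT, so the counts overlap. TAATCC was in the highest region of 9 of 68 homeobox genes, or 13.2% (7.12 to 23.28%), beside 7.25% of all genes with a region, a share just inside the interval. TAATTA was in 6, or 8.82%, beside 11.9%. TAAT was in 63, or 92.6%, beside 90.4%, so nearly any region of this length holds it. The 9 regions with TAATCC included those of dve-1, ceh-88, ceh-18, ceh-9 and mab-5.

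Over all 202 regions in homeobox windows, TAATCC was in 24, or 11.9% (8.12 to 17.07%), beside 7.18% of the 30000 pooled regions and 11.5% of the 1000 highest. TAATTA was in 10.9%, beside 11.5% of all pooled regions, and TAAT in 90.6%, beside 90.1%. The median GC content was 31.8% in both sets. TAATCC was also denser in the whole homeobox windows, with 4.55 sites per 10 kb against 3.63 for all genes, and so was TAATTA, with 6.13 against 5.25. Of the 355 TAATCC sites in homeobox windows, 25 lay within 100 bp of a pooled summit, or 7.04%, beside 6.25% for all genes; of the 478 TAATTA sites it was 26, or 5.44%, beside 7.28%. Near the 1000 highest summits it was 1 site, or 0.282%, beside 0.362%. Set against the sites present, the share near a pooled summit was a little above that in genes in general for TAATCC and a little below it for TAATTA. The lower density of regions in homeobox windows, 2.63 per 10 kb against 2.91, was not allowed for. No interval was computed for these shares, and neither difference was tested.

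Replicate matches were also counted by core. None of the 24 homeobox regions with TAATCC was matched in both replicates, which allows a share of up to 12.5% (3 of 24), and the Wilson interval is 0 to 13.8%. In replicate 1 alone 8 were matched, in replicate 2 alone 11, and 5 in neither. Of the 2155 pooled regions with TAATCC it was 746, 638 and 445. Of the 178 homeobox regions without TAATCC, 24 were matched in both, or 13.5% (9.23 to 19.28%). Over all pooled regions the shares were 15.1% with TAATCC and 14.4% without. Both of these shares lie above the Wilson interval of the 24 homeobox regions with TAATCC, which ends at 13.8%. The intervals of the homeobox regions with and without TAATCC overlap. No test was run on either difference.

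**Figure D5:**
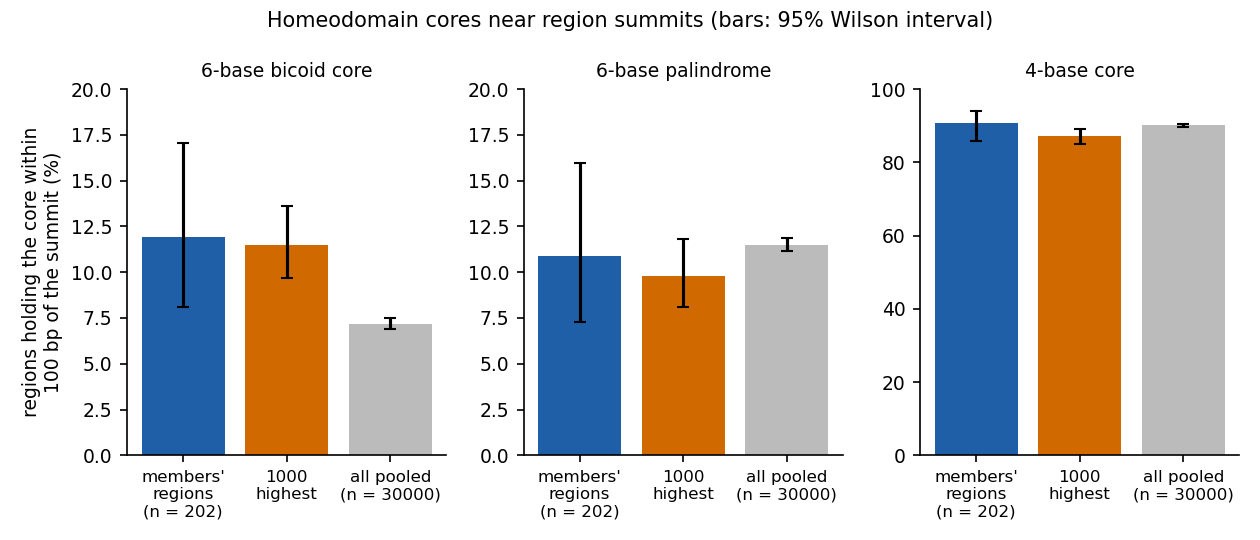
Share of regions (vertical axes, percent) with each core within 100 bp of the summit, for the 202 regions in homeobox windows, the 1000 highest pooled regions and all 30000 pooled regions, with 95% Wilson intervals; the left panel is TAATCC, the middle panel is the palindrome TAATTA, and the right panel, on a larger vertical scale, is TAAT. The bar for TAATCC in homeobox regions, 11.9%, is close to that of the 1000 highest regions and above that of all pooled regions, 7.18%.

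18 homeobox genes with other symbols were set beside these 84. Of them, 12 had a pooled region, none had a thresholded peak and 1 had one of the 1000 highest regions, and their windows held 1.5 regions per 10 kb. These are 66.7%, 0% and 5.56% of the 18, beside the 83.1%, 1.18% and 7.98% of all protein-coding genes, whose windows held 2.91 regions per 10 kb. The gene among the 1000 highest, unc-39, also of the sine oculis class, had a signal of 26.0 (rank 858), 3858 bp upstream, matched in both replicates. vab-7, the even-skipped gene of DB motor neurons, had 22.3 (rank 2132). unc-30 itself had no region in the window in any of the lists, so no value is given for it.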

How the data were processed

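UNC-30 ChIP-seq was measured in 2 biological replicates of L1 larvae, 1 group. The authors deposited, per the file headers and the lists that accompany the samples, ce11 candidate lists (peaks with background) for each replicate and for both pooled, and a list thresholded by irreproducible discovery rate. Each deposited region has a signal value, the authors' own and of unstated scale, and a −log10 q-value. The aligner, the peak caller, the control and the threshold are, in the sources used here, not given. The ce10 lists were not used here.

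Summits were assigned to genes of Ensembl release 115 (WBcel235), from 5000 bp upstream of the 5′ end to the 3′ end. Ranks follow the signal value within a list, and mitochondrial regions (10 in replicate 2) were left out of the 1000 highest. Values of different lists are compared by rank only. A match is a replicate summit within 100 bp of the pooled summit. Cores were searched on both strands within 100 bp of the summit. Python 3.11.15, pandas 2.3.3, numpy 2.4.6 and scipy 1.17.1 were used, and the assignment was tested on simulated data. Homeobox classes follow textbook knowledge.

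The genes, lists and settings were chosen with earlier results of these data known. Named were genes with a thresholded peak, the 20 highest pooled signals, the 6 Hox genes, genes whose highest region is matched in both replicates and holds TAATCC (none), unc-30 and unc-37. Alternatives changed the window, the assignment, the list depth, the matching distance, the flank and the replicate used.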

Additional observations from a re-analysis of the deposited data

How the results depend on the processing

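Of 30 alternatives, 22 left a count within 1.5 times of the reported one, or a share or median within its 95% interval, and 8 did not. The count of 4 homeobox genes with one of the 1000 highest regions became 2 (3.98% of all genes) in a promoter window from 2000 bp upstream to 500 bp downstream, 9 (12.2%) with 10000 bp upstream, 2 (4.24%) with the 500 highest regions and 11 (14.5%) with the 2000 highest. Leaving out a replicate meant using the other replicate's own list in place of the pooled one. With the list of replicate 2, 2 homeobox genes had one of the 1000 highest regions (7.94% of all genes) and 73 any region (85.1%). With that of replicate 1 it was 5 (7.95%) and 77 (84.5%). The median rank was 7939 in replicate 2, beside 7654.5 over all genes with a region, and 8285 in replicate 1, beside 7666. TAATCC was in 9.59% of the highest regions in replicate 2 and 9.09% in replicate 1, beside 7.0% and 7.37%. All 6 Hox genes had a region in each list. Matching within 50 bp gave 10 of the 68 homeobox genes with a region, beside 15% of all genes with a region. Within 200 bp it gave 25 of the 68, beside 36.6%. At 100 bp it was 16 of the 68, beside 25.0%. TAATCC within 50 bp of the summit was in 4.41% of the highest regions (3 genes), beside 3.61% of all genes with a region. Within 200 bp it was in 20.6% (14 genes), beside 13.3%, against 13.2% within 100 bp, beside 7.25%. The thresholded count stayed at 1 in every alternative tried, beside 0.516 to 1.74% of all genes. These alternatives changed the window, the assignment or the inclusion of unc-37, and not the list. The peak lies 51 bp into ceh-38 and nearest to its 5′ end, so none of them could drop it. The causes of these shifts were not tested beyond the construction of each alternative.

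No paired analysis was possible because the libraries form 1 group. Limits are the unknown depth, the 2 replicates, the unstated scale of the signal value, the background regions in the candidate lists and windows that overlap neighbouring genes.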
